A study of Mus musculus with 16 samples.

Results

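Cholesterol synthesis and sterol handling were followed through 29 genes in mouse liver. They were chosen by gene symbol for their place in the pathway, and all 29 were found among the 33730 gene IDs of the count table. All 29 also passed the filter on low counts, which left 16206 genes. The genes fall into 4 that control the transcription factor SREBP2 (Srebf2, Scap, Insig1, Insig2), 7 for the mevalonate steps (Acat2, Hmgcs1, Mvk, Pmvk, Mvd, Idi1, Fdps) and 11 for the steps from squalene to cholesterol (Fdft1, Sqle, Lss, Cyp51, Tm7sf2, Msmo1, Nsdhl, Hsd17b7, Ebp, Sc5d, Dhcr7). A further 3 handle sterols inside or at the surface of the cell (Stard4, Soat2, Scarb1), and 4 belong to the receptor LXR alpha and sterol export (Nr1h3, Abca1, Abcg5, Abcg8). The 18 genes of the mevalonate and squalene steps are called the synthesis genes here.

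The study sequenced RNA from 16 livers of C57BL/6 mice, 4 per group according to the series' design. Wild-type (WT) mice received the vehicle DMSO at 1 µL/g (WT DMSO) or CDDO-Me at 3 mg/kg dissolved in DMSO (WT CDDO-Me), injected into the peritoneum 24 h and 1 h before partial hepatectomy. Nrf2-/- mice (KO), made to lack the transcription factor NRF2, were left untreated (KO untreated) or received CDDO-Me in the same way (KO CDDO-Me). CDDO-Me, also known as bardoxolone methyl, is a synthetic triterpenoid that activates NRF2, and the tissue was the liver removed at the operation on day 0. The KO controls had no vehicle, so drug and vehicle cannot be told apart in KO mice, nor genotype and vehicle between the controls. In bulk tissue, fewer cells of a type and less RNA per cell cannot be told apart either.

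Cells make cholesterol from acetyl-CoA by way of mevalonate, isoprenoid units, squalene and lanosterol. When sterols in the endoplasmic reticulum are low, SCAP escorts SREBP2 to the Golgi, where it is cut and released to switch on the synthesis genes. When sterols are high, the INSIG proteins hold SCAP and SREBP2 back, and oxidised sterols activate LXR, which raises export through ABCA1 into lipoproteins and through the ABCG5 and ABCG8 pair into bile.

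The DNA just upstream of the start sites is shown for the 3 genes that passed a test below and for 3 synthesis genes that all peaked, among WT CDDO-Me livers, in the same liver. Start sites and sequences are those of RefSeq on GRCm38.p6, and 23 of the 29 genes were matched there, all but Fdps, Fdft1, Sqle, Stard4, Soat2 and Scarb1. Each run is the 250 bases before the start, 5′ to 3′ on the gene's own strand. Capitals mark CCAAT on either strand, the box bound by NF-Y, which acts beside SREBP2 at many of its targets, and TCACNCCAC on either strand, a form of the sterol response element. The windows are Hmgcs1 at chr13:119690101-119690350 (plus), Mvk at chr5:114444019-114444268 (plus), Cyp51 at chr5:4104698-4104947 (minus), Insig1 at chr5:28071162-28071411 (plus), Insig2 at chr1:121332590-121332839 (minus, the most upstream of its 3 windows) and Sc5d at chr9:42264301-42264550 (minus).
Hmgcs1: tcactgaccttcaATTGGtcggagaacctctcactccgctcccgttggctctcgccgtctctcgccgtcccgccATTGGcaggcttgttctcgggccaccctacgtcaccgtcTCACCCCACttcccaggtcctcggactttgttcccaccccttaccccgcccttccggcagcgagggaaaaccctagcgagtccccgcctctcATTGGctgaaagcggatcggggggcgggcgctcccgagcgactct
Mvk: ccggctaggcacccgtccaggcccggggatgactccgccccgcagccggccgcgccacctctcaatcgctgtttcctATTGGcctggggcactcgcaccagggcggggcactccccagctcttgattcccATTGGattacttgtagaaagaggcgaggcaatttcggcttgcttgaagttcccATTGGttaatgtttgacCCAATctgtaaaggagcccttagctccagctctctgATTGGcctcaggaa
Cyp51: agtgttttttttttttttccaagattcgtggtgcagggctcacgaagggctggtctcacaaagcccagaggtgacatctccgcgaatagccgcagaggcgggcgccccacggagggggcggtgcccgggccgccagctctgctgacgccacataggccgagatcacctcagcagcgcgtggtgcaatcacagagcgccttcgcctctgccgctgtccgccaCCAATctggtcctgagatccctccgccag
Insig1: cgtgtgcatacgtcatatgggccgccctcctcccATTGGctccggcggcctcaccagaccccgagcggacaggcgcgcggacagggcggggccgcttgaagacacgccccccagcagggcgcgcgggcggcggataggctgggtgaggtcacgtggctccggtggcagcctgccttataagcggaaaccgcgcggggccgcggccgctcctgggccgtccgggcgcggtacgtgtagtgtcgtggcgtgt
Insig2: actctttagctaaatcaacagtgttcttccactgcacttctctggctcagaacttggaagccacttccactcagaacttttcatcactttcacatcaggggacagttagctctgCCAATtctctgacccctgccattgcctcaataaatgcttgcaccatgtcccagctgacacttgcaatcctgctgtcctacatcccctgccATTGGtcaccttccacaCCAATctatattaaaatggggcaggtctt
Sc5d: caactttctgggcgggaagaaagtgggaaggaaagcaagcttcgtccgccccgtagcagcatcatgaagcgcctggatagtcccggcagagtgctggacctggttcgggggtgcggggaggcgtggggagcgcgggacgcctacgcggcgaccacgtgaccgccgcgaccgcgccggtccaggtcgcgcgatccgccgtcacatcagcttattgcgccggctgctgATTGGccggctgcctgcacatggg

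In windows from 250 bases before to 50 after the start, CCAAT lay in 19 of the 23 genes (82.6%) and in 14 of the 15 synthesis genes with a window, against 41.1% of 27025 genes. Hmgcs1 alone held TCACNCCAC, 137 bases before the start, against 1.44% of all genes. The longer form known as SRE-1 was in none of the 23 and in 0.0999% of genes. The core of the antioxidant response element bound by NRF2, TGACNNNGC on either strand, lay in the windows of Mvk, Pmvk, Hsd17b7 and Dhcr7, which is 17.4% of the 23 against 14% of all genes. The LXR element known as DR4 was in none of the 23 and in 0.0148% of genes. All motifs were searched on both strands, and any match of the longer sterol element would also match the shorter. A match here is a description of the sequence. Only exact matches were counted, so a gene without a match can still hold an element that differs from the searched letters.

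Total counts ran from 12002317 to 99284626 per library, the largest being WT CDDO-Me 1, and 20453 to 27594 genes were detected. Levels are given as CPM, which are counts scaled to a common library size after TMM normalisation. Nfe2l2, the gene of NRF2, stood at 42.8 to 74.9 CPM in vehicle livers, at 36.6 to 45.5 in treated WT livers and at 15.7 to 21.0 in treated KO livers. In KO untreated it was 51.7, 35.5, 19.9 and 21.3, so the library labelled KO untreated 1 lay within the WT DMSO range. Nqo1, a target of NRF2, was at 0.508 CPM in that library and at 3.21 to 4.22 in WT DMSO. Genes that GENCODE classes as sense intronic or TEC took 0.673% to 0.967% of counts in 4 libraries called intron-rich below (WT DMSO 1 and 2, KO untreated 1 and 2) and 0.186% to 0.407% in the other 12. Ribosomal RNA took 0.173% to 0.634% of counts in 6 WT libraries and at most 0.0368% in the 8 KO libraries and the remaining WT ones, which are WT CDDO-Me 1 and WT DMSO 4. Markers of hepatocytes were present in every library, with 10 of 10 detected and a summed level of 57961 to 133691 CPM.

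Levels of different genes were compared per kilobase, as FPKM. In WT DMSO the highest of the 29 were Insig1 at 110.3 ± 80.9 FPKM (mean ± SD, n = 4), Hmgcs1 at 93.5 ± 26.4, Abca1 at 72.3 ± 41.5 and Sc5d at 72.1 ± 18.4. These 4 differed from each other by less than their spread. The lowest were Fdps at 3.09 ± 3.36, Mvk at 5.36 ± 1.44, Lss at 6.47 ± 3.81 and Mvd at 8.69 ± 6.59, whose spreads also overlapped. The place of Fdps is uncertain, since 26.7% of its exon bases lie in another gene on the same strand and reads there may not be counted. Between these ends, the mevalonate enzymes Acat2 (27.5 ± 3.90) and Idi1 (32.4 ± 8.74) lay close to Cyp51 (32.1 ± 5.76) of the lanosterol steps. The export genes Abcg5 (25.0 ± 10.6) and Abcg8 (20.0 ± 7.99), whose products work as a pair, were at like levels.

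The synthesis genes varied as a block between livers of the same group. KO CDDO-Me 3 held the highest level of its group in 18 of the 18 synthesis genes, against 28.5% of all genes tested. WT CDDO-Me 2 was highest in 16 of 18 (21.2% of all genes) and KO untreated 4 in 16 of 18 (31.1%). At the low end, WT DMSO 2 held the lowest level of its group in 16 of 18 (25.6% of all genes) and KO untreated 1 in 15 of 18 (37.3%). The mean deviation of the 18 genes from their own means over 16 libraries was 0.63 on the log2 scale in KO CDDO-Me 3, 0.47 in WT CDDO-Me 2, 0.72 in KO untreated 4, -0.96 in WT DMSO 2 and -0.25 in KO untreated 1. Within a group the SD was 0.29 to 0.42, beside group means of -0.38 in WT DMSO, 0.03 in WT CDDO-Me, 0.15 in KO untreated and 0.21 in KO CDDO-Me. Since the 18 genes moved together, counts of how many were positive in the comparisons below are not counts of separate observations.

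**Figure D1:**
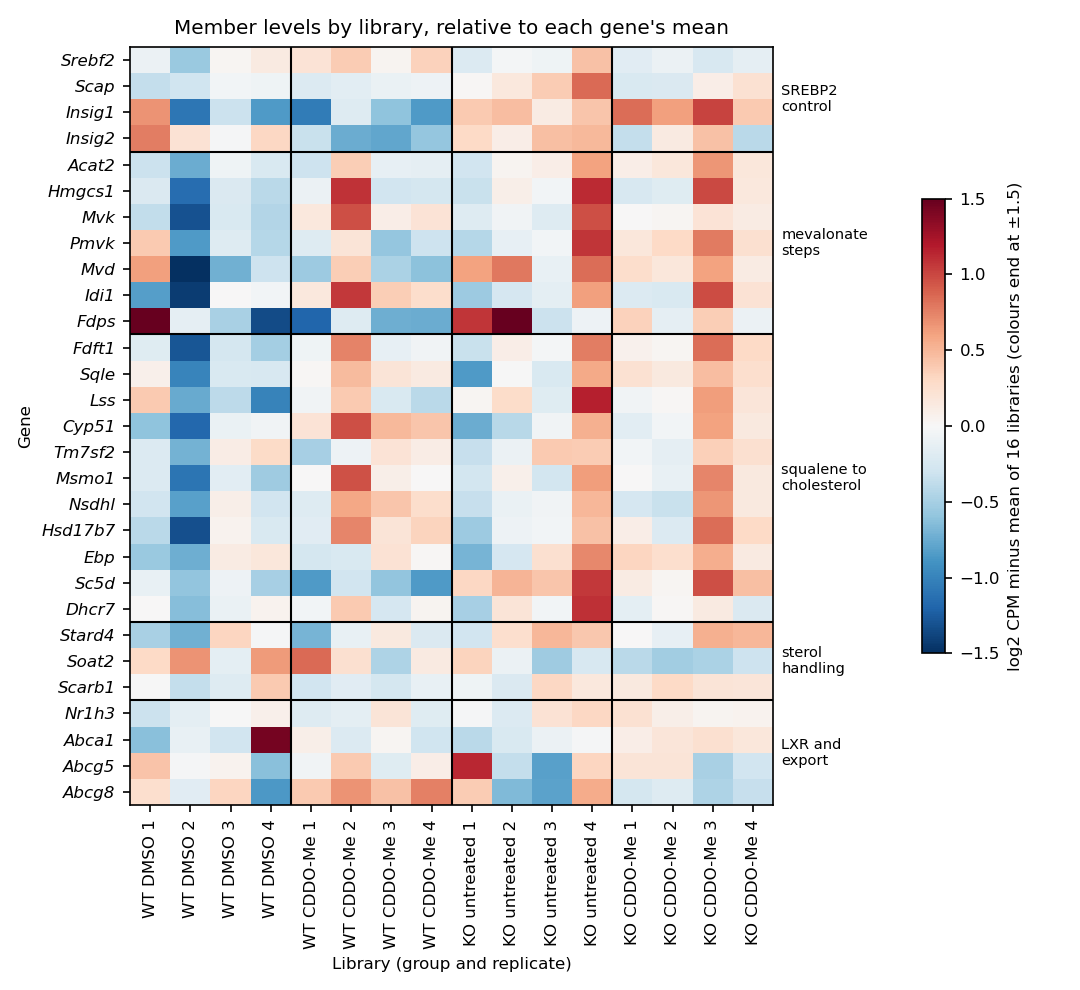
Level of each of the 29 genes (rows, by class) in each of the 16 libraries (columns, by group and replicate), as the log2 CPM minus the gene's mean over all libraries, with colours ending at ±1.5. WT DMSO 2 is blue and KO untreated 4, KO CDDO-Me 3 and WT CDDO-Me 2 are red across most synthesis genes.

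Hepatocyte markers moved with some of these livers. Their summed level was 60376 CPM in WT DMSO 2 and 57961 in KO untreated 1, the lowest of KO untreated, and 133691 in KO untreated 4 and 122754 in KO CDDO-Me 3, the highest of their groups. WT CDDO-Me 2, high in the synthesis genes, had the lowest hepatocyte sum of its group (78475 CPM), and WT DMSO 1 had 59310.1 with its synthesis genes at -0.06. The share of sense intronic and TEC genes was 0.880% in WT DMSO 2 and 0.967% in KO untreated 1, the highest of the 16 libraries. It was 0.186% in KO CDDO-Me 3, the lowest of the 16, 0.212% in KO untreated 4, the lowest of its group, and 0.303% in WT CDDO-Me 2. The parts of cell makeup and of intronic counts in the pattern were not tested. The mean of the 4 SREBP2 control genes had its extremes in the same livers. It was highest of its group in KO untreated 4 (0.55), KO CDDO-Me 3 (0.33) and WT CDDO-Me 2 (-0.18), and lowest in WT DMSO 2 (-0.43) and KO untreated 1 (0.13). The members did not all follow this mean. In KO CDDO-Me 3, Insig1 (767 CPM) and Insig2 (211) were the highest of the group, but Srebf2 (55.4) was the lowest. For the 4 LXR and export genes, the mean was highest of its group in KO untreated 4 (0.29) and WT CDDO-Me 2 (0.18). In WT DMSO 2 it was the lowest of its group (-0.11). The other livers ran the other way from the synthesis genes. KO CDDO-Me 3 was the lowest of its group, at -0.17, and KO untreated 1 (0.27) lay above KO untreated 2 and 3 (-0.36 and -0.37).

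**Figure D2:**
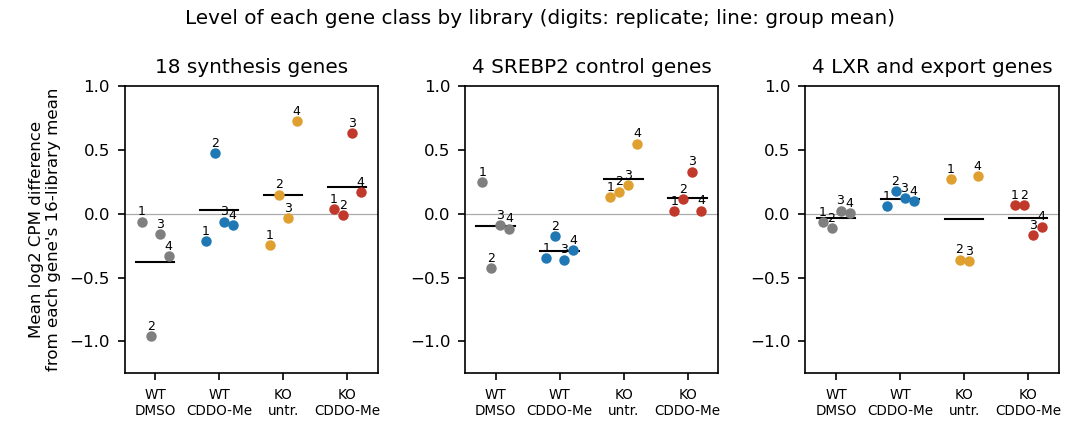
Mean log2 CPM difference from each gene's mean over 16 libraries (vertical axis), by group, for the 18 synthesis genes, the 4 SREBP2 control genes and the 4 LXR and export genes; each point is 1 library with its replicate number and each line a group mean. Synthesis genes spread from -0.96 (WT DMSO 2) to 0.72 (KO untreated 4), while WT CDDO-Me libraries sit together at -0.36 to -0.18 for the control genes.

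The first comparison asked what CDDO-Me did in WT liver. Insig2 fell to 0.520 times its vehicle level, and none of the 18 synthesis genes or the 4 LXR and export genes of the 29 passed the test. The call was an adjusted p under 0.05 in edgeR (quasi-likelihood test, Benjamini-Hochberg over all 16206 genes). It was met by 1 of the 29 genes, against 0.728% of all genes and 0.173% called lower. Among the synthesis genes, none of which passed, 16 of 18 had a positive log2 fold change (48.4% of all genes), with a median of 0.40 against -0.02 over all genes. At an unadjusted p under 0.05, 9 of the 29 were higher and 1 lower, against 6.91% and 8.42% of all genes. Of those 9, 7 were synthesis genes (Mvk, Idi1, Fdft1, Cyp51, Msmo1, Nsdhl, Hsd17b7), beside Srebf2 and Abcg8. With levels divided by library totals, the number of positive synthesis genes was 13 of 18 and the median 0.26, while the median of all genes moved to -0.17. With the intronic share as a covariate, 12 of 18 were positive and the median was 0.25. Without WT CDDO-Me 2 the median was 0.22, and without WT DMSO 2 it was 0.26. Markers of Kupffer cells and macrophages were higher in the same comparison, 4 of 10 called and 10 of 10 positive, with summed levels of 220.4 to 284 CPM in vehicle livers and 469.7 to 633 in treated livers. Stellate cell and fibroblast markers were positive in 8 of 8 with none called, at 219 to 379 and 444 to 498 CPM. The part of these cells in the result was not tested.

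With CDDO-Me given to KO mice, none of the 29 passed the same test, against 0.13% of all genes (0.105% higher and 0.0247% lower). DESeq2 and limma-voom also called 0. At an unadjusted p under 0.05, Scap alone was lower (9.58% of all genes were) and none was higher (6.24% were). The synthesis genes were split, 10 of 18 positive with a median of 0.11 against -0.04 over all genes. The sign of that median depended on the settings and libraries used. With library totals it was -0.09, still above the -0.26 over all genes. Without the 4 intron-rich libraries it was -0.11, and with the intronic share as a covariate it was -0.12, with 2 of 18 positive. Without KO untreated 4 it was 0.35, and without KO CDDO-Me 3 it was -0.08. Stellate cell markers were negative in 7 of 8 and Kupffer cell markers positive in 9 of 10, with none called, and their part was not tested.

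Between the controls, all 18 synthesis genes had a positive log2 fold change in KO untreated over WT DMSO, against 50.5% of all genes, and none of the 29 was called (1.38% of all genes were). Their median was 0.46, against 0.00 over all genes, and all 18 stayed positive under RLE scaling, library totals and both FPKM pseudocounts. Without KO untreated 4, the liver high in synthesis genes, 17 of 18 were positive and the median was 0.24. The 18 genes moved together between livers, so they are not 18 separate observations. By library, their mean deviation was -0.96 to -0.06 in WT DMSO and -0.25 to 0.72 in KO untreated, which overlapped. DESeq2 called 2 (Scap and Sc5d) and limma-voom 0. At an unadjusted p under 0.05, 7 of the 29 were higher (Scap, Acat2, Mvk, Mvd, Fdft1, Lss, Sc5d) and 0 lower, against 6.65% and 7.46% of all genes. With the replicate number as a block, Scap passed, at a log2 fold change of 0.55 ± 0.12 (SE) and an edgeR adjusted p of 0.0443. The labels give no such pairing, and replicates 1 and 2 of both control groups were the intron-rich libraries. Stellate cell markers were also positive in 8 of 8 and Kupffer cell markers in 10 of 10, 1 of them called, with summed levels in KO untreated of 255 to 654 CPM and 263 to 472 CPM. Their part was not tested.

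Under the drug, KO livers had more Insig1 and Sc5d RNA than WT livers. These 2 of the 29 were called, both higher, against 3.3% of all genes, 1.06% called higher and 2.23% lower. The synthesis genes were mixed, with 12 of 18 positive and a median of 0.11 against -0.01. That median was -0.02 without KO CDDO-Me 3 (8 of 18 positive), 0.02 without WT CDDO-Me 1 and 0.27 without WT CDDO-Me 2. At an unadjusted p under 0.05, 4 were higher (Insig1, Insig2, Sc5d, Scarb1) and 3 lower (Srebf2, Soat2, Abcg8), against 7.92% and 9.16% of all genes. Summed hepatocyte markers were 98549.5 to 122754 CPM in KO CDDO-Me and 78475 to 98447 in WT CDDO-Me, without overlap. By gene, 5 of the 10 hepatocyte markers were positive, 1 of them called, and 5 negative. Stellate cell markers were negative in 8 of 8 with none called, at 243 to 389 CPM in KO CDDO-Me against 444 to 498. Endothelial markers were negative in 8 of 8 with none called, and Kupffer cell markers in 6 of 10 with 1 called lower. Endothelial markers were also one-sided in the other pairwise comparisons, with none called. They were positive in 7 of 8 for the drug in WT mice, positive in 8 of 8 between the controls and negative in 8 of 8 for the drug in KO mice. The part of these cells in the result was not tested.

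The difference between the drug responses of the genotypes (WT response minus KO response) was called for 0 of the 29, against 0.13% of all genes, and DESeq2 and limma-voom also called 0. At an unadjusted p under 0.05, 3 of the 29 were positive (Srebf2, Mvk, Abcg8) and none negative, against 4.96% and 3.57% of all genes (8.53% in all). Of the 18 synthesis genes 14 were positive, against 51% of all genes. The WT and KO responses given for a gene below are therefore not shown to differ. The same difference was positive in 10 of 10 Kupffer cell markers, 1 of them called. It was also positive in 8 of 8 stellate cell markers and 8 of 8 endothelial markers, with none called. The part of these cells was not tested. The comparisons share control and treated groups, and their values are set side by side as descriptions.

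**Figure D3:**
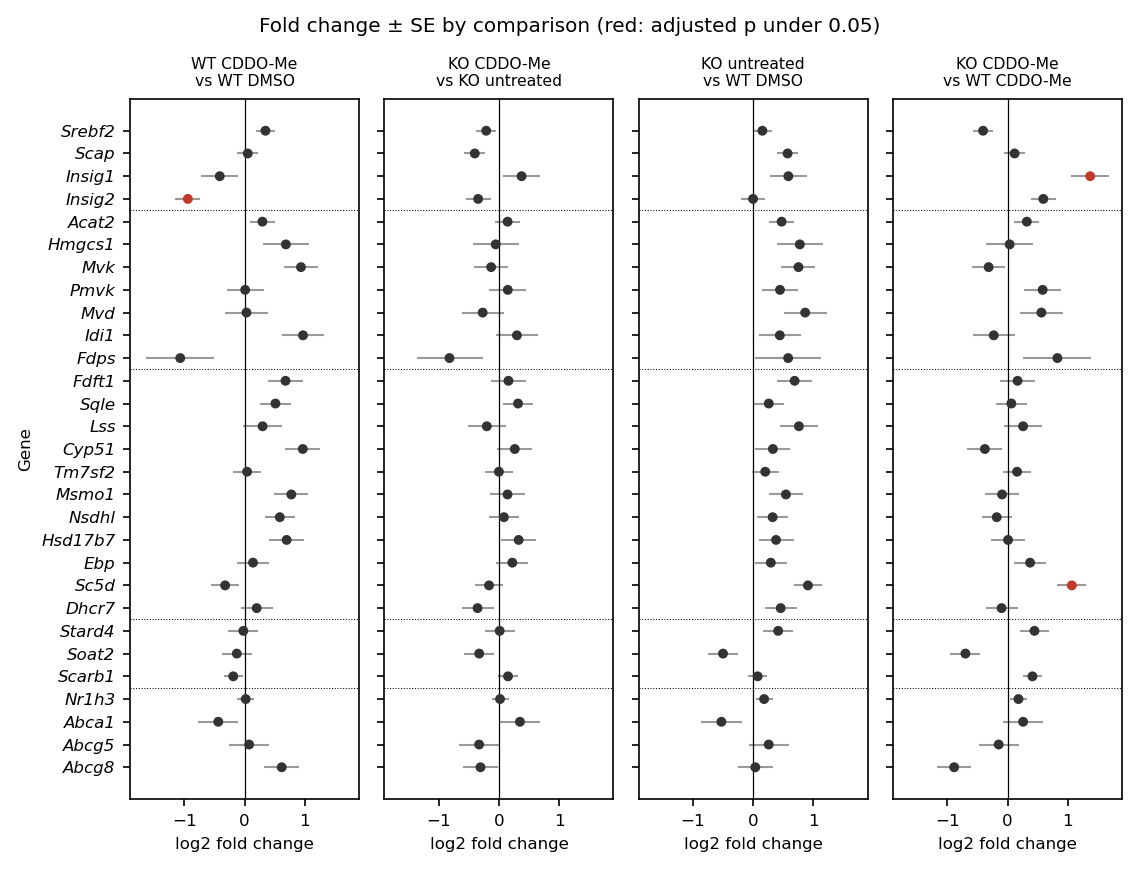
log2 fold change (horizontal axis, points) with its standard error (bars) for each of the 29 genes in the 4 pairwise comparisons, ordered by class, red where the edgeR adjusted p was under 0.05. Insig2 is red in WT CDDO-Me vs WT DMSO and Insig1 and Sc5d in KO CDDO-Me vs WT CDDO-Me, while the 18 synthesis genes lie right of 0 in KO untreated vs WT DMSO.

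Among the SREBP2 control genes, Insig2 (ENSMUSG00000003721, chr1:121304353-121332589, minus strand) encodes the INSIG protein known for being lowered by insulin in liver. Its levels in replicates 1 to 4 were 263, 179.7, 153 and 193 CPM in WT DMSO and 123, 92.9, 90.4 and 104 in WT CDDO-Me. Every treated WT liver lay below every vehicle liver, which held for 2.84% of all genes. The log2 fold change was -0.94 ± 0.21 (SE) with an edgeR adjusted p of 0.0493. That call sat at the threshold and held under 8 of 30 alternatives. It was lost without any 1 of WT DMSO 1, 2 or 4, any WT CDDO-Me library, KO untreated 1, 2 or 3, or KO CDDO-Me 2 or 4 (edgeR adjusted p up to 0.197), and without the 4 intron-rich libraries (adjusted p = 0.114). The log2 fold change stayed between -1.12 and -0.77 under all 30 alternatives.

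KO livers held Insig2 at 191, 166, 213 and 217 CPM untreated and 121, 171, 211 and 118 with the drug. Untreated KO livers lay within the WT DMSO range, and of the treated KO livers, replicates 1 and 4 lay below the untreated range and replicates 2 and 3 within it. The KO response was -0.35 ± 0.21, with an edgeR adjusted p of 0.387, and the difference between the WT and KO responses was -0.60 ± 0.29, with an adjusted p of 0.601.

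Insig1 (ENSMUSG00000045294, chr5:28071363-28078662, plus strand), the INSIG gene that SREBP2 itself switches on, was at 607, 179.7, 304 and 210.3 CPM in WT DMSO and 183, 332, 250.1 and 211 in WT CDDO-Me. It reached 500.4, 524, 415 and 509 CPM in KO untreated and 678, 583, 767 and 499.8 in KO CDDO-Me. All 4 treated KO livers were above all 4 treated WT livers, and WT DMSO 1 alone among the WT livers reached the KO levels. Under the drug the difference was 2.59-fold, or 1.37 ± 0.32 on the log2 scale (edgeR adjusted p = 0.0243). Between the controls it was 0.58 ± 0.31 (adjusted p = 0.434), and without WT DMSO 1 this also passed the test. Among the libraries low in ribosomal RNA, the only treated WT liver stood at 183 CPM against 499.8 to 767 in the 4 treated KO livers, and with that split as a term the log2 fold change was 1.88 ± 0.41 (adjusted p = 0.0255). The call was lost without any 1 of WT CDDO-Me 1, 3 or 4 or KO CDDO-Me 1, 2 or 3 (adjusted p = 0.0534 to 0.0872).

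Srebf2, the gene of SREBP2, was at 61.5, 44.7, 67.0 and 71.9 CPM in WT DMSO and 75.6, 85.1, 67.4 and 83.3 in WT CDDO-Me. In KO untreated it was 57.0, 64.1, 62.5 and 88.5 and in KO CDDO-Me 58.4, 61.5, 55.4 and 59.8. The treated KO livers lay within 55.4 to 61.5 CPM, all under the treated WT livers, which held for 9.82% of all genes in that comparison. The log2 fold change was -0.41 ± 0.16 there, with an edgeR adjusted p of 0.202, and 0.35 ± 0.16 for the drug in WT mice (adjusted p = 0.325). Srebf2 and Insig1 had opposite signs between the treated livers.

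Scap, the sterol-sensing escort of SREBP2, ranged over 124 to 155 CPM in vehicle livers, 138 to 152 in treated WT livers, 161 to 287 in untreated KO livers and 136 to 187 in treated KO livers. KO untreated lay above WT DMSO without overlap, as for 2.87% of all genes and, of the 29, also Mvk and Sc5d. None of the 29 lay below in that way, as did 3.04% of all genes. Its log2 fold change was 0.57 ± 0.18 between the controls (edgeR adjusted p = 0.128) and -0.40 ± 0.18 for the drug in KO mice (adjusted p = 0.292). Of its exon bases, 13.2% are overlapped by 5830462I19Rik on the opposite strand, a gene at 0.208 CPM or less in every library.

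**Figure D4:**
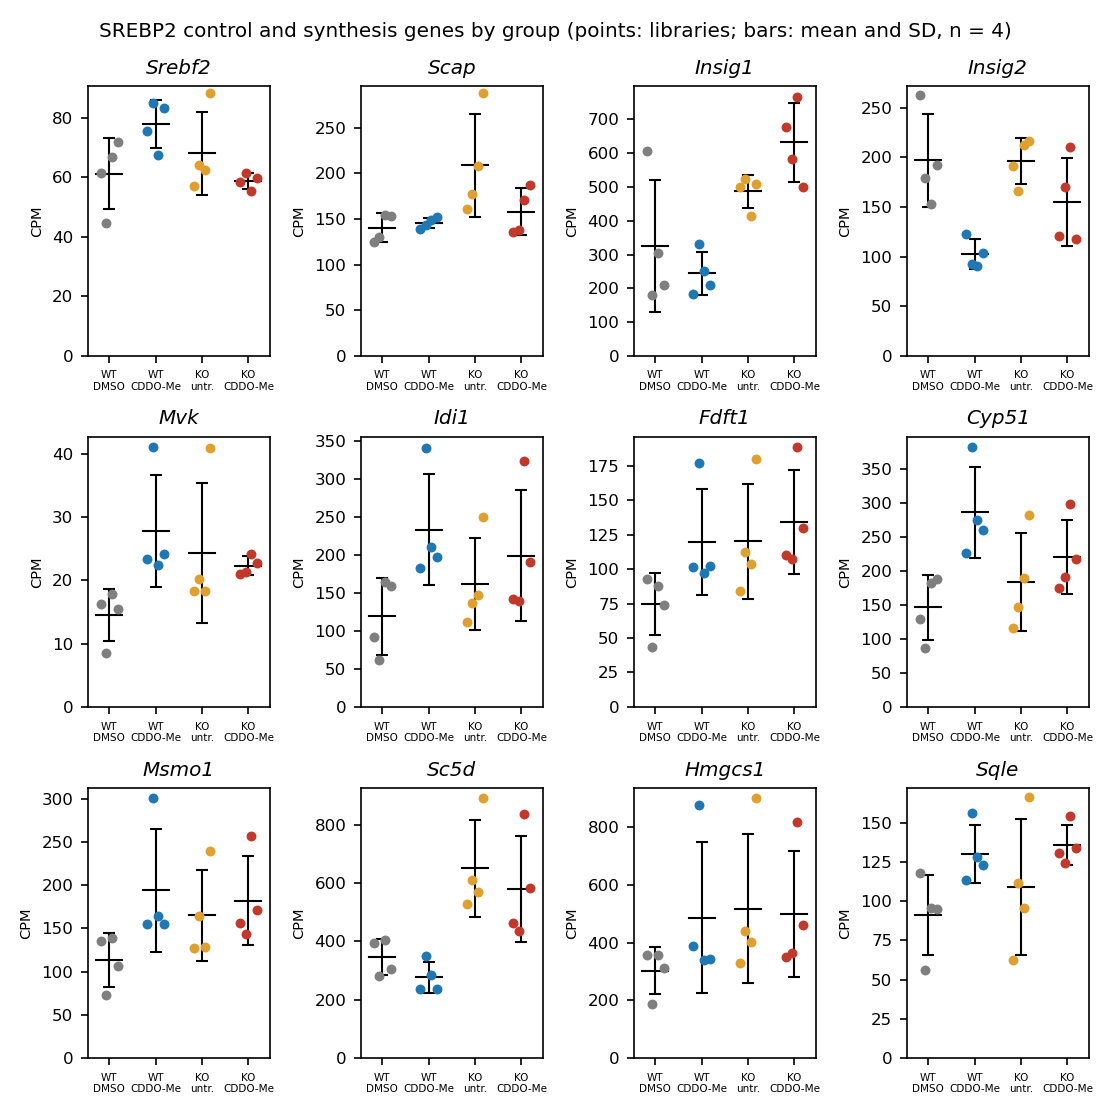
CPM (vertical axes, from 0) of 12 SREBP2 control and synthesis genes in the 4 groups, with 1 point per library and the mean and SD of 4 libraries. Insig2 is lowest in WT CDDO-Me (90.4 to 123 CPM), the group means of Insig1 and Sc5d are higher in the KO groups than in the WT groups, and 1 high liver stretches the SD of Hmgcs1, Msmo1 and Fdft1 in WT CDDO-Me.

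The mevalonate steps start with Acat2, the cytosolic thiolase that joins acetyl-CoA units, and Hmgcs1, which adds the next unit to give HMG-CoA. Hmgcs1 was at 356, 188, 358 and 312 CPM in WT DMSO and 389, 877, 338 and 345 in WT CDDO-Me. KO untreated had 329.6, 442, 401 and 901 CPM and KO CDDO-Me 349.9, 365, 820.4 and 463. In each of the last 3 groups, 1 liver stood far above the rest. The others ran from 329.6 to 463 CPM, some within the WT DMSO range of 188 to 358 and some above it. Its log2 fold change was 0.68 ± 0.39 for the drug in WT mice (edgeR adjusted p = 0.39) and 0.77 ± 0.39 between the controls (adjusted p = 0.394). Acat2 ranged from 52.8 to 84.0 CPM in WT DMSO to 94.1 to 139 in KO CDDO-Me. Its value is uncertain where reads were split, since 39.1% of its 50-base words also occur in other genes, mainly its relative Acat3 at 186 to 329 CPM.

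Idi1 encodes the isomerase that readies isoprenoid units for joining. It was at 92.2, 61.3, 165 and 159 CPM in WT DMSO and 183, 342, 211 and 197 in WT CDDO-Me, and the groups did not overlap. KO untreated had 112, 137, 148 and 251 CPM and KO CDDO-Me 142, 140.1, 324 and 191, which overlapped each other and both WT groups. Its log2 fold change was 0.97 ± 0.35 in WT mice, with an edgeR adjusted p of 0.23, and 0.30 ± 0.35 in KO mice, with an adjusted p of 0.647.

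Mvk, mevalonate kinase, was likewise higher in all 4 treated WT livers (22.4 to 41.0 CPM) than in vehicle (8.46 to 17.8 CPM), at a log2 fold change of 0.93 ± 0.28 and an edgeR adjusted p of 0.153. In KO mice it ran over 18.2 to 40.9 CPM untreated and 21.0 to 24.2 with the drug (-0.13 ± 0.28, adjusted p = 0.812). Non-overlap upward in WT mice, found for 4.36% of all genes, held for 6 of the 29: Mvk, Idi1, Fdft1, Cyp51, Msmo1 and Abcg8. The difference between the responses was largest in size for Mvk among the 29, 1.06 ± 0.40, with an adjusted p of 0.42.

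Pmvk and Mvd, the kinase and decarboxylase that follow Mvk, showed no such separation. Pmvk covered 23.6 to 55.8 CPM with vehicle and 28.6 to 48.7 with the drug in WT livers, and 31.8 to 89.4 and 48.0 to 73.1 in KO untreated and KO CDDO-Me. Mvd covered 6.38 to 29.3, 12.5 to 24.8, 17.7 to 34.2 and 20.9 to 29.1 CPM in the same order. Fdps, farnesyl diphosphate synthase, stood apart: it was high in WT DMSO 1 (28.8 CPM), KO untreated 1 (18.7) and KO untreated 2 (35.3), 3 of the 4 intron-rich libraries, and at 3.54 to 11.5 CPM in the other 13. Part of its count is uncertain, since 26.7% of its exon bases lie in Gm43738 on the same strand, itself at 0.0483 CPM or less. Its log2 fold change in WT mice, -1.07 ± 0.57 (edgeR adjusted p = 0.366), had the sign opposite to the 6 other mevalonate genes.

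From squalene onward, Fdft1 (squalene synthase) was at 92.9, 43.6, 88.1 and 73.9 CPM in WT DMSO and 101, 177, 97.4 and 102 in WT CDDO-Me. The groups did not overlap, at a log2 fold change of 0.68 ± 0.29 and an edgeR adjusted p of 0.29. Ctsb, on the opposite strand, overlaps 18.3% of its exon bases and was itself at 214 to 567 CPM, so where strand was not kept some reads are uncertain. KO untreated (84.1 to 180.2 CPM) and KO CDDO-Me (107 to 189 CPM) overlapped.

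Sqle, squalene epoxidase, which feeds oxygen into the pathway and is a known control point, was at 118, 56.3, 95.6 and 94.9 CPM in WT DMSO and 113, 156, 128 and 123 in WT CDDO-Me. It was at 62.5, 112, 95.6 and 167 in KO untreated and 131, 124, 154 and 134 in KO CDDO-Me. WT DMSO 2 and KO untreated 1 were the low livers, and each treated group overlapped its control. The log2 fold change was 0.51 ± 0.25 in WT mice and 0.32 ± 0.25 in KO mice, with edgeR adjusted p-values of 0.341 and 0.501. Lss, which closes the ring to lanosterol, ranged over 42.1 to 110.1 CPM in vehicle livers, 63.4 to 111 in treated WT livers, 74.2 to 188 in untreated KO livers and 80.9 to 129.6 in treated KO livers.

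Cyp51, the demethylase acting on lanosterol, was at 129, 86.8, 182 and 188 CPM in WT DMSO and 226, 382, 275 and 261 in WT CDDO-Me. All 4 treated WT livers were above all 4 vehicle livers. KO untreated had 117, 146, 189 and 283 CPM and KO CDDO-Me 175, 191, 298 and 217, which overlapped. The WT response was 0.96 ± 0.29, with an edgeR adjusted p of 0.153 and, by DESeq2, 0.0446. DESeq2 was the only 1 of 30 alternatives that called it. In KO mice it was 0.26 ± 0.29 (adjusted p = 0.627), and the difference between the responses was 0.70 ± 0.41 (adjusted p = 0.731).

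Msmo1, Nsdhl and Hsd17b7 act in turn to strip methyl groups from the sterol ring, and their WT responses were all positive without passing. Msmo1 was at 72.5 to 139 CPM with vehicle and 155 to 301 with the drug, without overlap (0.77 ± 0.28, edgeR adjusted p = 0.232). Nsdhl and Hsd17b7 had log2 fold changes of 0.58 ± 0.25 and 0.70 ± 0.29 (adjusted p = 0.297 and 0.287), and their groups overlapped. In KO mice the 3 changes were 0.14 ± 0.28, 0.08 ± 0.25 and 0.33 ± 0.29.

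Of the last enzymes, Tm7sf2 (a sterol reductase) and Ebp (a sterol isomerase) had log2 fold changes of 0.04 ± 0.23 and 0.14 ± 0.27 for the drug in WT mice. Dhcr7, the reductase that ends 1 branch of the pathway, was at 95.2, 61.1, 88.9 and 98.3 CPM in WT DMSO and 92.3, 125, 80.1 and 97.4 in WT CDDO-Me. KO untreated had 67.1, 109, 92.2 and 203 CPM, with 1 high liver, and KO CDDO-Me 85.7, 96.5, 105 and 81.7. All 4 groups overlapped, and its edgeR adjusted p-values in the pairwise comparisons were 0.71, 0.478, 0.5 and 0.907.

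Sc5d (ENSMUSG00000032018, chr9:42251595-42264256, minus strand), the desaturase just before the Dhcr7 step, was the synthesis gene that passed a test. It was at 396, 283, 404 and 304 CPM in WT DMSO and 237, 350.2, 283 and 237 in WT CDDO-Me. It was at 529.5, 610.4, 568 and 893 CPM in KO untreated and 464, 437, 837 and 583 in KO CDDO-Me. Every KO liver stood above every WT liver. Non-overlap upward held for 2.87% of all genes between the controls and 9.25% between treated livers. The share of genes separated across all livers in this way was not counted. Treated KO livers had 2.1-fold the level of treated WT livers, or 1.07 ± 0.24 on the log2 scale (edgeR adjusted p = 0.0213). The controls differed by 0.91 ± 0.24 (adjusted p = 0.0768), and the drug responses were -0.32 ± 0.24 in WT mice and -0.16 ± 0.24 in KO mice (adjusted p = 0.49 and 0.714). The first call was lost without any 1 of WT CDDO-Me 1, 3 or 4 or KO CDDO-Me 3 (adjusted p = 0.0646 to 0.0839). With the ribosomal RNA split as a term it was 1.27 ± 0.33 (adjusted p = 0.0567), and within the libraries low in ribosomal RNA the treated WT liver had 237 CPM against 437 to 837 in the treated KO livers.

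None of the 3 genes of sterol handling passed the main test. Stard4, a carrier of free sterol in the cytosol, was at 72.2, 61.6, 127 and 100.2 CPM in WT DMSO and 62.2, 94.1, 112 and 87.4 in WT CDDO-Me. KO untreated had 83.2, 121, 143 and 134 and KO CDDO-Me 102, 93.1, 146 and 143 CPM, and all 4 groups overlapped. Soat2, which esterifies cholesterol in hepatocytes, was at 31.2 to 36.2 CPM in KO CDDO-Me against 32.6 to 81.1 in WT CDDO-Me, or -0.70 ± 0.25 on the log2 scale (edgeR adjusted p = 0.146). Scarb1, the HDL receptor, was at 173 to 192 against 127 to 145 CPM without overlap (0.41 ± 0.16, adjusted p = 0.191). Among the alternatives for that comparison, Scarb1 was called under 7 (library totals, the 3 FPKM fits, only the 2 groups, without the intron-rich libraries, and the intronic covariate). Soat2 was called under 2, the ribosomal RNA term and the intronic covariate. Non-overlap upward in that comparison held for 9.25% of all genes and for 5 of the 29 (Insig1, Fdps, Sc5d, Scarb1, Abca1).

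Nr1h3, the gene of LXR alpha, was at 63.0, 71.0, 78.6 and 82.8 CPM in WT DMSO and 68.6, 71.1, 89.7 and 69.6 in WT CDDO-Me. KO untreated had 77.7, 68.5, 91.4 and 97.4 and KO CDDO-Me 92.6, 83.7, 81.0 and 81.9 CPM. Its groups overlapped in all 4 comparisons, with log2 fold changes of 0.02 to 0.18 (SE 0.14).

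Abca1, the exporter of cholesterol onto apolipoprotein particles, was at 407, 581, 512 and 1697 CPM in WT DMSO and 667, 542, 640.1 and 511 in WT CDDO-Me. It was at 474, 534, 589 and 619.9 in KO untreated and 670.2, 711, 740.0 and 702 in KO CDDO-Me. WT DMSO 4 stood alone, while the other 3 vehicle livers lay at 407 to 581 CPM. The treated KO livers were above the untreated KO livers without overlap, as were 5.98% of all genes (4.5% were below, and none of the 29), at 0.35 ± 0.33 (edgeR adjusted p = 0.575). Summed neutrophil markers were also high in WT DMSO 4, at 31.7 CPM against 1.18 to 1.27 in the other vehicle livers, and their part in the Abca1 value was not tested.

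Abcg5 and Abcg8, the pair that moves sterols into bile, start side by side on opposite strands of chromosome 17 and share a few exon bases (3.02% and 2.19%). Abcg8 was at 89.2, 66.7, 93.9 and 41.3 CPM in WT DMSO and 98.2, 119, 101 and 127 in WT CDDO-Me, without overlap. In KO untreated it was 97.5, 47.5, 42.9 and 110.1 and in KO CDDO-Me 62.4, 65.4, 54.6 and 58.8 CPM, where the 4 treated livers lay below all 4 treated WT livers. Its log2 fold change was 0.61 ± 0.29 for the drug in WT mice (edgeR adjusted p = 0.322) and -0.89 ± 0.29 between treated KO and WT livers (adjusted p = 0.11, and 0.0484 by DESeq2). Between treated livers Abcg8 passed under 2 of 30 alternatives, DESeq2 and only the 2 groups. Its log2 fold change there ran from -0.94 to -0.44 over the alternatives. Abcg5 was at 87.0, 63.7, 67.3 and 41.7 CPM in WT DMSO and 62.1, 84.8, 57.1 and 69.4 in WT CDDO-Me. In KO untreated it was 142, 50.6, 36.8 and 81.1 and in KO CDDO-Me 73.8, 74.1, 46.0 and 53.1 CPM, and all 4 groups overlapped. Its log2 fold changes in the same comparisons were 0.07 ± 0.33 and -0.15 ± 0.33 (adjusted p = 0.92 and 0.889), and whether the pair differed was not tested. KO untreated 1 and 4 were high in both genes and KO untreated 2 and 3 low in both.

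**Figure D5:**
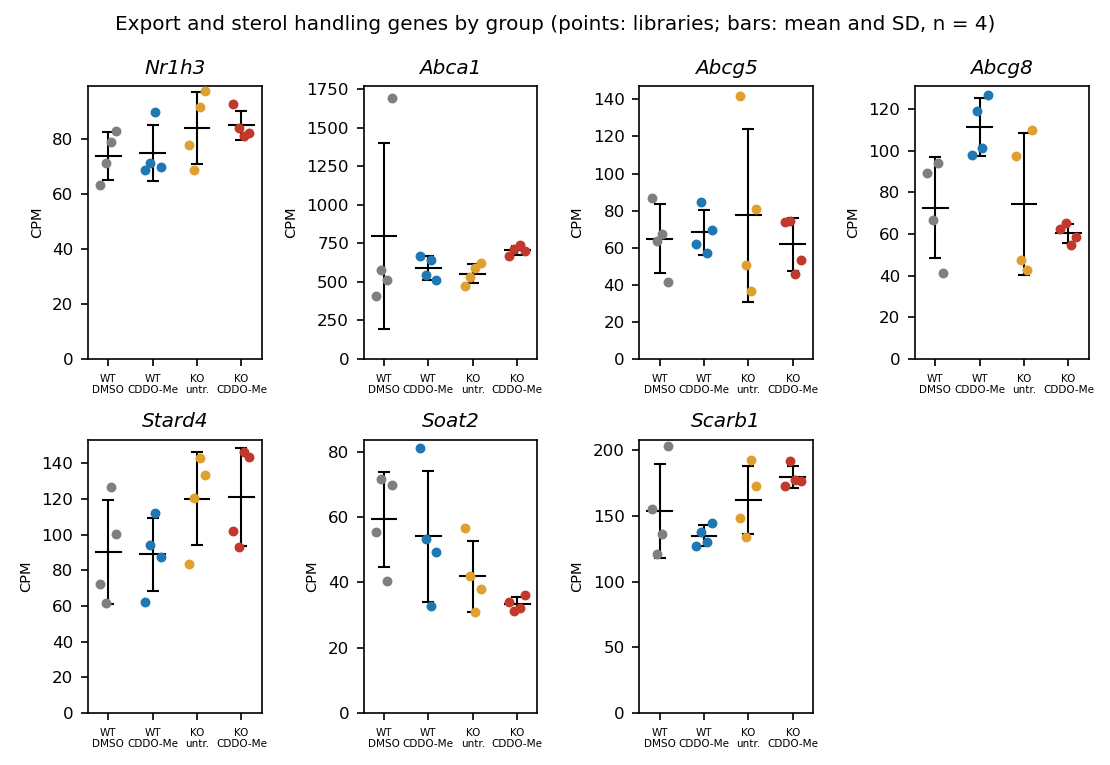
CPM (vertical axes, from 0) of the 4 LXR and export genes and the 3 sterol handling genes in the 4 groups, with 1 point per library and the mean and SD of 4 libraries. Abcg8 is highest in WT CDDO-Me (98.2 to 127 CPM) and 1 vehicle liver at 1697 CPM sets the SD of Abca1.

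The wider pathway was read from 5 lists of genes. Of 9 genes of sterol sensing and SREBP processing, Srebf1 alone was called in any comparison: this gene of SREBP1, the relative of SREBP2 that drives fatty acid synthesis, was at 84.5 to 104 CPM in WT CDDO-Me and 274 to 424 in KO CDDO-Me (log2 fold change 1.96 ± 0.33, edgeR adjusted p = 0.00272). Of 5 genes that supply acetyl-CoA, Acly, which makes it from citrate, was called in the same comparison, at 199.8 to 240.2 CPM against 503 to 677 (1.41 ± 0.26, adjusted p = 0.00561). In vehicle livers Srebf1 was at 92.0 to 335 CPM and Acly at 379 to 546, and the log2 fold changes for the drug in WT mice were -1.20 ± 0.33 and -1.11 ± 0.26 (adjusted p = 0.108 and 0.0646). Among 10 LXR targets and lipid transfer genes, Abcg1, an exporter to HDL that macrophages also express, was called higher with the drug in WT mice, at 4.64 to 8.23 CPM against 12.3 to 15.8 (0.93 ± 0.21, adjusted p = 0.0493). None of 9 isoprenoid branch genes and none of 13 genes of sterol uptake and transfer was called in any of the 5 comparisons by edgeR. In WT mice with the drug, 0 and 2 of them had an unadjusted p under 0.05, against 15.3% of all genes, and in KO mice 3 and 1, against 15.8%. The calls for Srebf1 and Acly, 1 of 9 and 1 of 5 genes, stand beside 3.3% of all genes called in that comparison, and that for Abcg1, 1 of 10, beside 0.728%.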

How the data were processed

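Liver RNA of 16 mice (1 µg of total RNA, ribosomal RNA removed, directional libraries, read pairs of 150 bases) was sequenced, per the labels' protocols. The authors deposited a table of raw counts per gene and a table of FPKM, and the submitters' processing notes name GRCm38.p5, DESeq2, HTSeq 0.6.1p1, TopHat2 2.1.0, cutadapt 1.2.1 and CASAVA 1.8.2. Not given in the sources used here were the annotation release and the strand setting of the counting. FPKM, as deposited by the authors, were used for levels between genes and for alternative fits. Coordinates come from GENCODE M21, which held 33629 of the 33730 IDs.

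Counts of all 16 libraries were fitted in edgeR 4.0.16 (R 4.3.3, TMM scaling, filterByExpr by group, quasi-likelihood test, Benjamini-Hochberg adjustment over 16206 genes, threshold 0.05). The edgeR fit and a limma fit were first run on simulated counts, for the comparison of WT CDDO-Me with WT DMSO. The other steps were not tested in this way. Alternatives used DESeq2 1.42.0, limma 3.58.1 (voom, and log2(FPKM + 1) or log2(FPKM + 0.1)), other scalings and filters, and each library left out. p-values measure the spread between the samples, which the design describes as separate animals, and no pair of libraries agreed within sampling noise (lowest chi-square per degree of freedom 15.8 over 24 pairs). Values in every library are given for each called gene and for a fixed panel (Srebf2, Insig1, Insig2, Hmgcs1, Idi1, Sqle, Cyp51, Dhcr7, Stard4, Nr1h3, Abca1, Abcg5, Abcg8), and the other members mostly by range. The members and lists were chosen with earlier results of these data known. Same-numbered KO untreated and WT DMSO libraries deviated together (correlations 0.385 to 0.516). That pairing comes from the data alone, since the labels give no shared litter or day.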

Additional observations from a re-analysis of the deposited data

Results flagged for a closer look

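In 10 of 116 combinations of a gene and a group of 4 livers, the highest liver stood so far from the rest that its gap, as a share of the group's range, was above Dixon's 95% critical value for 4 samples. Chance flags about 1 in 20 groups. WT CDDO-Me 2 accounted for 5 of the 10, all synthesis genes. Hmgcs1 was at 877 CPM there against 338 to 389 in the other 3 livers, and Mvk at 41.0 against 22.4 to 24.1. Mvd was at 24.8 against 12.5 to 13.8, Fdft1 at 177 against 97.4 to 102, and Msmo1 at 301 against 155 to 164. KO untreated 4 held 2 more: Mvk at 40.9 CPM against 18.2 to 20.1, and Pmvk at 89.4 against 31.8 to 41.4. Acat2 was at 139 CPM in KO CDDO-Me 3 against 94.1 to 99.4. Outside synthesis, Nr1h3 was at 89.7 CPM in WT CDDO-Me 3 against 68.6 to 71.1, and Abca1 at 1697 CPM in WT DMSO 4 against 407 to 581.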

How the results depend on the processing

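Over 28 pairs of a gene and a comparison, 775 of 837 values under the alternatives kept their direction and side of the threshold, 35 were no longer past it, 27 newly were, and 0 reversed. For the drug in WT mice, 1 gene was called, and 2 by DESeq2. The count was 0 with library totals, no filter, each of the 3 FPKM fits, only the 2 groups, without the 4 intron-rich libraries, without the pair WT CDDO-Me 1 and WT DMSO 4, with ribosomal RNA as a term or with intronic share as a covariate, and 0 to 1 with each library left out. Between the controls, 0 became 2 with DESeq2, library totals, FPKM + 1, FPKM + 0.1 or the intronic covariate, and 1 with unfiltered FPKM, with the ribosomal term (Abca1, lower) or with the replicate block (Scap). The only WT DMSO library low in ribosomal RNA was WT DMSO 4, the liver with Abca1 at 1697 CPM, so the Abca1 call leans on it. Leaving out libraries gave 0 to 2, and the 2 (Insig1, Mvd) came without WT DMSO 1. Between treated livers, 2 became 7 with only the 2 groups, 4 without intron-rich libraries, 6 with the intronic covariate, 3 with DESeq2 (Abcg8 added), 3 with library totals and each FPKM fit (Scarb1 added) and 0 without that pair, and 0 to 2 with libraries left out. The replicate block left the other member counts at 1, 0, 2 and 0. Same-numbered libraries there correlated at -0.0533 to 0.393 (drug, WT), -0.456 to 0.374 (drug, KO) and -0.194 to 0.28 (treated livers), and 3, 2 and 5 of 8 libraries correlated best with their own number. No alternative called a member for the drug in KO mice or for the difference between responses. Over all genes, calls ran from 54 to 466 (118 as reported), 4 to 299 (21), 20 to 824 (223), 265 to 2168 (534) and 18 to 201 (21). With library totals, calls higher and lower were 118 and 88 between the controls (66 and 157 as reported), 30 and 20 for the drug in KO mice (17 and 4) and 564 and 311 between treated livers (172 and 362), and the median of all genes was 0.18, -0.26 and 0.10. The causes were not tested. Depth limits most the genes of lowest level (Fdps, Mvk, Mvd), in libraries as small as 12002317 counts.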
